A study of Mus musculus with 16 samples.

Results

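The circadian clock genes of the medial prefrontal cortex were examined in 16 male mice at postnatal day 120. The set was a fixed list of 10 genes of the molecular clock and its outputs, Arntl, Clock, Npas2, Per2, Per3, Ciart, Nr1d1, Nr1d2, Dbp and Tef, chosen by name and not by a measured value. The list was drawn up with earlier results of these data known. All 10 were found among the 18424 genes of the deposited table, and all 10 passed the filter on low values in every comparison. RNA sequencing was done on 4 groups of 4 mice, all of the C57BL/6N strain. WT-Veh mice were wild type and were nursed by dams that drank water with 0.2% saccharin alone. WT-Flx mice were wild type and were nursed by dams whose saccharin water also held fluoxetine, a selective serotonin reuptake inhibitor, at 0.1 mg/ml between postnatal days 3 and 21. HT-Veh and HT-Flx mice were nursed by dams on the same vehicle or fluoxetine water and carried 1 copy of Arid1b with a protein-truncating mutation in exon 5, introduced with a Cas9 nickase and carried in the germline. The product of Arid1b is a DNA-binding part of SWI/SNF (BAF) complexes, which remodel chromatin. The mice lived under a light cycle of 12 h. The hour of tissue collection and the litter of each mouse are not given in the sources used here, so any difference in collection hour between mice cannot be told apart from the other differences between them. Replicates were separate mice.

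The mammalian clock is a transcriptional feedback loop that runs in nearly every tissue, the cerebral cortex included. A heterodimer of BMAL1, the product of Arntl, with CLOCK or its forebrain relative NPAS2 binds E-box sequences and switches on the Period and Cryptochrome genes, whose products return to the nucleus and repress the heterodimer. Another loop runs through the nuclear receptors REV-ERBα and REV-ERBβ (Nr1d1 and Nr1d2), which repress Arntl at ROR response elements, and the PAR bZIP factors DBP and TEF carry the rhythm to output genes through D-box sequences. In tissues sampled around the clock, Arntl transcripts peak at nearly the opposite time from those of Dbp, Nr1d1 and the Period genes, which is why these genes are used as a sign of the hour at which a tissue was taken. Per2 and Per1 also respond to acute stimuli, glucocorticoids among them.

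The letters of these binding motifs were found in the promoters of 4 of the 10 genes. RefSeq windows on GRCm38.p6, from 250 bases before to 50 bases after an annotated start, were at hand for 9 of the 10 genes, and Per2 had no entry. They were searched on both strands for the E-box CACGTG, the D-box TTATGTAA or TTACGTAA and the ROR response element core TAGGTCA or TGGGTCA, whose matches here did not overlap. Over the 27025 genes with a window, 8.09% held an E-box, 1.23% a D-box and 7.35% the ROR core. The 4 windows below are those of the genes in which a motif was found, 1 window for each gene, with the motif letters in capitals and the sequence on the gene's strand.
Ciart, chr3:95882179-95882478, minus strand, E-boxes in capitals: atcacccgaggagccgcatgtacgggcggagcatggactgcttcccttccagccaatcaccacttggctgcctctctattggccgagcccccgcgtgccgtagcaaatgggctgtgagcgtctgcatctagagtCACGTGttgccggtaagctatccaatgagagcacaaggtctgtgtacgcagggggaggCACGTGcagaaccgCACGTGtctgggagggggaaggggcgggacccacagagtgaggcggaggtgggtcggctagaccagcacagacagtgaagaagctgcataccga
Per3, chr4:151044616-151044915, minus strand, D-boxes in capitals: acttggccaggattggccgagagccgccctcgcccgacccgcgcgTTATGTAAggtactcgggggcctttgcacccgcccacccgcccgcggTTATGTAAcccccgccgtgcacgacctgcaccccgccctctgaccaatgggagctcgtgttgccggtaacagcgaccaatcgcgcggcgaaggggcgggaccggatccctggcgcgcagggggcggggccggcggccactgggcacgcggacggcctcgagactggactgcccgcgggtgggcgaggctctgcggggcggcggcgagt
Tef, chr15:81802423-81802722, plus strand, E-box in capitals: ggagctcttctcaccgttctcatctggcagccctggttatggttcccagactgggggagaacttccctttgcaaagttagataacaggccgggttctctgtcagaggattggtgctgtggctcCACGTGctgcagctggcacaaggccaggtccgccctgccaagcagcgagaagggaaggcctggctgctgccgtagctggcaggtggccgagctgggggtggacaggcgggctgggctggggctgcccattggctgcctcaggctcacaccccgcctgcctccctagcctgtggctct
Arntl, chr7:113207261-113207560, plus strand, ROR core in capitals: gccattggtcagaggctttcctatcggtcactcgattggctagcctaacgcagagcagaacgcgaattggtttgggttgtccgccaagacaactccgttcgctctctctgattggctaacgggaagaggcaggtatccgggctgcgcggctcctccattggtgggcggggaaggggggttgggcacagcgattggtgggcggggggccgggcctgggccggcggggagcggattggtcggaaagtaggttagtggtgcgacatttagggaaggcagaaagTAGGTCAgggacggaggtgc
The Ciart window held 3 E-boxes, which start 116, 58 and 44 bases before the annotated start. The Per3 window held 2 D-boxes, 205 and 158 bases before the start, and the Tef window 1 E-box, 127 bases before it. A second Tef window, at chr15:81811164-81811463, held 1 E-box as well, 138 bases before its start. The Arntl window, the second of 2 for this gene, held 1 ROR core that begins at base 31, counted from the start as base 1. None of the 3 motifs was found in the windows of Clock, Npas2, Nr1d1, Nr1d2 and Dbp. This says only that these letters were not in the windows searched.

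The values are normalised read counts, that is, Salmon estimates per gene divided by a DESeq2 factor, and the depth of sequencing behind them is unknown. Their totals were 26718751 to 29902419 per mouse. Arid1b itself, the mutated gene, stood at 1618.6 to 2005 in HT-Veh against 1787 to 2831 in WT-Veh, with overlap, and at 1545 to 1671 in HT-Flx against 1902 to 2433 in WT-Flx, where the groups did not overlap. Neither difference passed the test after adjustment (limma, log2 difference -0.38, SE 0.130, adjusted p = 0.922, and -0.39, SE 0.0968, adjusted p = 0.289). The 6 markers of cortical projection neurons (among them Slc17a7, Tbr1, Neurod6, Cux2 and Fezf2) were present in every library, with a summed level of 41301 to 60955. Markers of the olfactory bulb, which lies in front of the prefrontal cortex, split the libraries. The mean log2(value + 1) of 6 of them (Eomes, Tbx21, Cdhr1, Doc2g, Th and Sp8), here called the bulb score, was above 6 in 5 libraries (7.68 to 10.2, 3 from WT-Flx, namely replicates 1, 2 and 4, with replicate 1 of WT-Veh and replicate 4 of HT-Veh) and 4.24 to 5.48 in the other 11. The summed level of these 6 markers was 240 to 9599.7 in WT-Veh, 384 to 7240.6 in WT-Flx, 255 to 2799.8 in HT-Veh and 207 to 336 in HT-Flx, so that no HT-Flx library and 3 of the 4 WT-Flx libraries were rich in them. In the 11 other libraries every marker was above 0 throughout, except that Eomes was at 0 in HT-Flx replicate 3. In bulk tissue, fewer cells of a type and less RNA per cell cannot be told apart.

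Per kilobase of exon, the output factor Tef had the highest level of the 10 genes and the activator Arntl the lowest. The means over 16 mice were 1608 ± 185 (SD) for Tef, 1230.4 ± 168 for Dbp, 1224 ± 98.1 for Nr1d1, 810.0 ± 59.8 for Nr1d2, 338 ± 88.1 for Per2, 329 ± 43.3 for Ciart, 266 ± 37.8 for Per3, 244 ± 45.2 for Npas2, 192 ± 30.5 for Clock and 84.6 ± 7.25 for Arntl. Some neighbours in this order did not differ beyond their spread. Dbp was above Nr1d1 in 7 of 16 mice, Per2 above Ciart in 9 of 16, and Per3 above Npas2 in 12 of 16. Nr1d1 was above Nr1d2, Nr1d2 above Per2 and Clock above Arntl in 16 of 16. Of the 10 genes, 6 overlap another gene on the opposite strand (Nr1d1 with Thra, Dbp with Sphk2, Arntl, Ciart and Tef with an antisense transcript, and Npas2 with a processed pseudogene). On the same strand, Per3 overlaps Camta1, Npas2 a processed pseudogene, and Clock a processed pseudogene and an unconfirmed transcript. Per2 and Nr1d2 overlap no annotated gene. The libraries were stranded, but the strand setting of the quantification is not given in the sources used here, so reads of these pairs may not be fully separated.

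Arntl (chr7:113207465-113314126, plus strand) encodes BMAL1. Its transcript level, among the most rhythmic in other tissues, had a spread within groups near the middle of genes with a mean of at least 500. Positions of the members are those of the whole gene in GENCODE M21 on GRCm38, and values are estimated from reads assigned to its transcripts. Its normalised read counts were 613, 668, 689 and 578 in WT-Veh replicates 1 to 4, 629, 612, 597 and 646 in WT-Flx, 652, 695, 617 and 685 in HT-Veh, and 671, 487, 703 and 643 in HT-Flx. Its highest value was 1.45 times its lowest, and the lowest was HT-Flx replicate 2. The groups overlapped throughout. Clock (chr5:76209868-76304792, minus strand), which encodes its usual partner, stood at 1764, 2747, 2777 and 2895 in WT-Veh, 1668, 2894, 2854 and 2333 in WT-Flx, 2618, 2752, 2706 and 2386 in HT-Veh, and 2666, 3149, 2804 and 3144 in HT-Flx. The 2 lowest mice, WT-Veh replicate 1 and WT-Flx replicate 1, lay apart from the other 14, which began at 2333. Npas2 (chr1:39193731-39363236, plus strand), which encodes the alternative partner, stood at 704, 1238, 1169 and 906 in WT-Veh, 941, 1142, 1048 and 1154 in WT-Flx, 1259.8, 1219, 1379 and 1127 in HT-Veh, and 1224, 1686, 1249 and 1278 in HT-Flx. All 4 HT-Flx mice were above all 4 WT-Flx mice, while HT-Veh and WT-Veh overlapped.

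Among the repressors, Per2 (chr1:91415982-91459324, minus strand), which encodes a core repressor of the BMAL1 heterodimer, spread most from mouse to mouse within groups. Its normalised read counts were 1129, 2221, 2082 and 2462 in WT-Veh, 1307, 1675, 2269 and 2243 in WT-Flx, 1148, 1503, 2010.0 and 2456 in HT-Veh, and 1642, 2207, 2767 and 2561 in HT-Flx. The highest mouse had 2.45 times the level of the lowest, the 4 groups overlapped, and the lowest mouse of each group was the one numbered 1 in the labels. Per3 (chr4:151003652-151044665, minus strand), a Period relative that is dispensable for the core loop, stood at 2132, 2739.8, 2609 and 2529 in WT-Veh, 2077, 2523, 2654 and 2081 in WT-Flx, 2367, 2661, 2737 and 2538 in HT-Veh, and 2709.7, 3531, 2836 and 2156 in HT-Flx. HT-Flx held the highest Per3 value, in the mouse with the lowest Arntl, and the groups overlapped.

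Ciart (chr3:95878503-95882251, minus strand), which encodes the repressor CHRONO of the BMAL1 heterodimer, stood at 682, 801, 689 and 731 in WT-Veh, 846, 752, 784 and 578 in WT-Flx, 836, 839, 788 and 922 in HT-Veh, and 662, 586, 771 and 642 in HT-Flx. Every HT-Veh mouse was above every HT-Flx mouse. The 2 REV-ERB genes moved least. Nr1d1 (chr11:98767932-98775333, minus strand) stood at 3737, 4136, 4084 and 3898 in WT-Veh, 3945, 3727, 4013 and 3584 in WT-Flx, 4276, 3638, 3329 and 3674 in HT-Veh, and 3673, 3791, 3672 and 3067 in HT-Flx. Nr1d2 (chr14:18204054-18239127, minus strand) stood at 3867, 4649.6, 4428 and 4560.0 in WT-Veh, 3558, 4665, 4793 and 4386 in WT-Flx, 4177, 4506, 4571 and 4525 in HT-Veh, and 4549, 4070.2, 4519 and 4278 in HT-Flx. Across the 16 mice Nr1d1 spanned 1.39-fold and Nr1d2 1.35-fold, and for both the groups overlapped.

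Of the 2 output factors, Dbp (chr7:45705088-45710203, plus strand), which is among the genes with the widest daily swing in other tissues, stood at 4236, 3684, 3533 and 3533 in WT-Veh, 5134, 3473, 3786 and 3409 in WT-Flx, 3637, 3434, 3511 and 3901 in HT-Veh, and 3897, 2942, 3810.3 and 2999.8 in HT-Flx. Its highest value, in WT-Flx replicate 1, was 1.75 times its lowest, in HT-Flx replicate 2. Tef (chr15:81802421-81826863, plus strand) stood at 10093, 12805, 12923 and 13365 in WT-Veh, 10542, 10959, 12746 and 10413 in WT-Flx, 12413, 13414, 12899 and 13019.7 in HT-Veh, and 13259, 14640.1, 15046 and 13888 in HT-Flx. The 4 HT-Flx mice had Tef levels above all 4 WT-Flx mice, and the 4 lowest mice of the series were all bulb-rich.

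**Figure D1:**
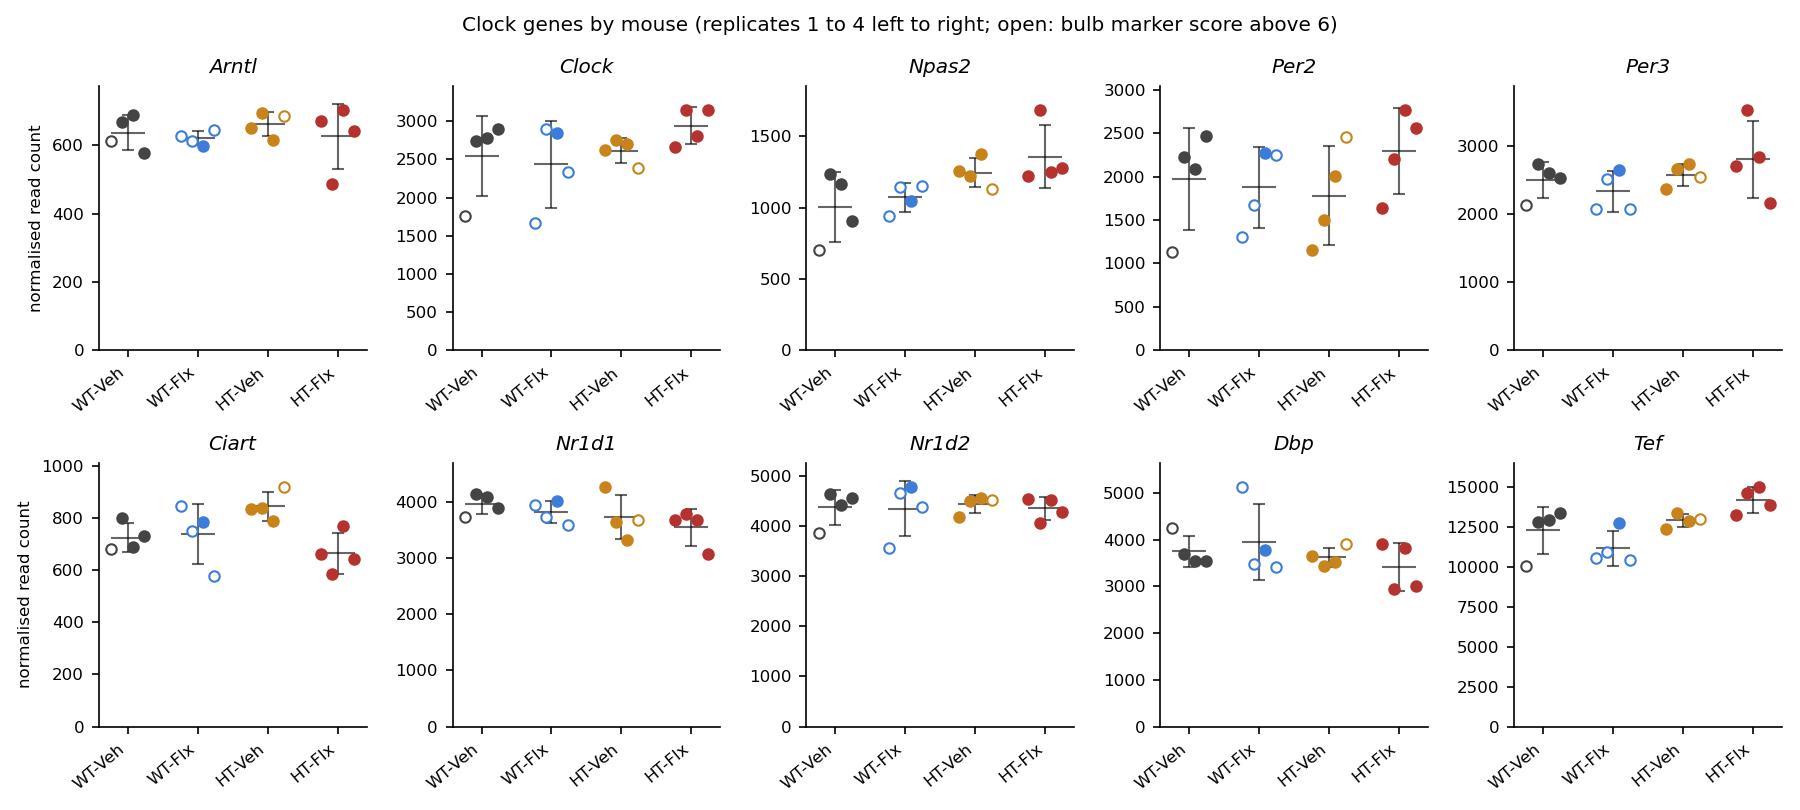
Normalised read counts of the 10 clock genes (vertical axes from 0) in each mouse of the 4 groups (horizontal axes), with replicates 1 to 4 from left to right, bars for the group mean ± SD (n = 4), and open circles for the 5 libraries with a bulb score above 6. Per2 is lowest in the first mouse of every group, whereas Nr1d1 and Nr1d2 span less than Per2 in all groups together (1.39-fold and 1.35-fold against 2.45-fold).

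The members differed widely in how much they varied between mice of 1 group. The SD of log2(value + 1) within groups was 0.43 for Per2, above 98.5% of the 8253 genes with a mean of at least 500. It was 0.26 for Clock (89.5%), 0.23 for Npas2 (84.4%), 0.20 for Per3 (72.5%) and 0.19 for Dbp (70.0%). It was 0.16 for Ciart (55.3%), 0.14 for Arntl (41.8%), 0.12 for Tef (30.1%) and Nr1d2 (30.2%) and 0.11 for Nr1d1 (22.9%), where the median of these genes was 0.15. Per2 thus stood near the top of these genes, Arntl near their middle and Nr1d1 below it.

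The first question was whether any clock gene differed by genotype or by early fluoxetine. No member passed the test in any of the 4 comparisons (limma on log2(value + 1), Benjamini-Hochberg over all genes, threshold 0.05). The 40 log2 differences lay between -0.35 and 0.40, with 95% intervals within -0.76 to 0.87, and their adjusted p-values ran from 0.299 to 1.00. These intervals are not adjusted. They give the range of differences compatible with 4 mice a group, not the smallest change that could have been called. The SE of a difference ran from 0.063, for Nr1d2 and Tef in HT-Flx versus HT-Veh, to 0.27 for Per2 in HT-Veh versus WT-Veh. It changed with the comparison, since Nr1d2 and Tef had 0.109 and 0.111 in WT-Flx versus WT-Veh. Of all genes, 3 of 16832 (0.0178%) passed between the genotypes under vehicle (HT-Veh versus WT-Veh) and 7 of 16788 (0.0417%) between the genotypes under fluoxetine (HT-Flx versus WT-Flx). For the drug, 0 of 16814 (0%) passed in HT mice (HT-Flx versus HT-Veh) and 0 of 16833 (0%) in WT mice (WT-Flx versus WT-Veh). At an unadjusted p under 0.05 the genotype comparisons held 822 genes under vehicle and 1754 under fluoxetine, with 1 and 2 members among them, and the drug comparisons held 516 genes in HT and 707 in WT mice, with 1 member and 0 members.

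**Figure D2:**
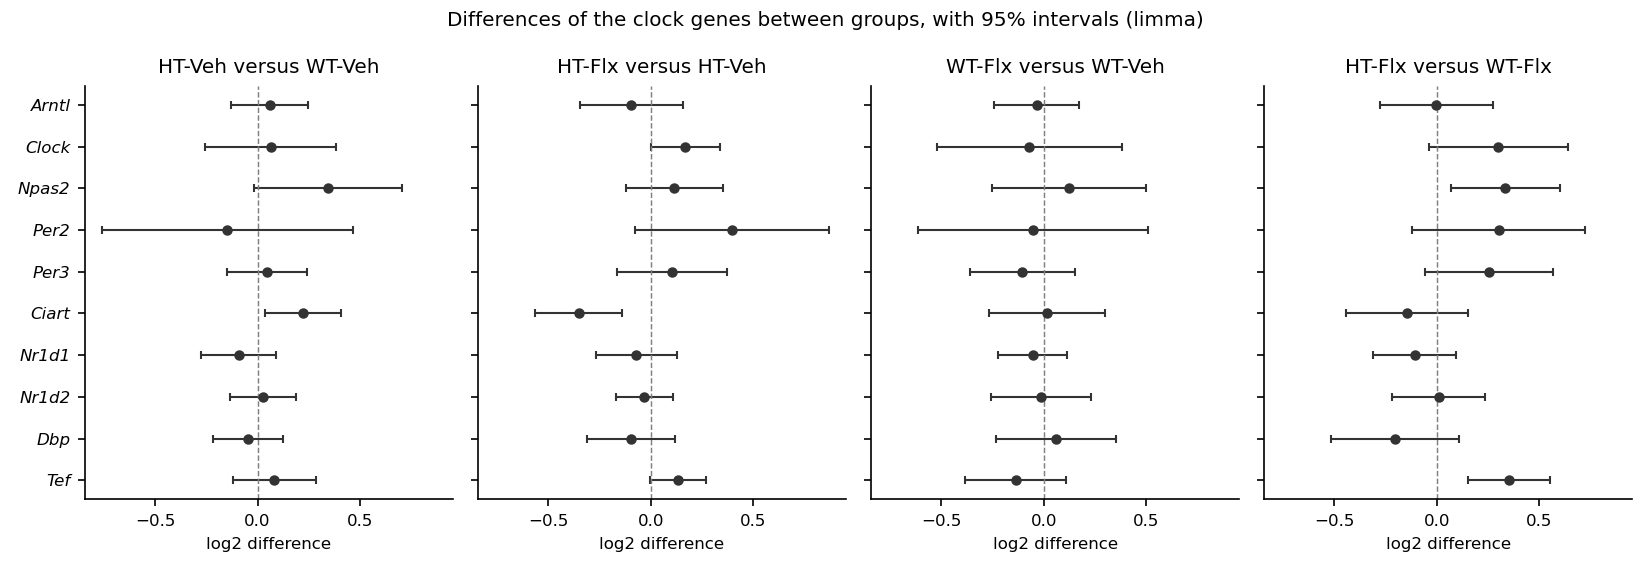
Log2 differences of the 10 clock genes (horizontal axes, log2(value + 1) scale) in the 4 comparisons between groups, with points for the estimate and bars for its 95% interval from limma (4 mice a group). The intervals that miss 0 are those of Ciart between genotypes under vehicle and between treatments in HT mice, and those of Npas2 and Tef between genotypes under fluoxetine, none of which passed after adjustment over all genes.

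In HT-Veh versus WT-Veh, the estimate furthest from 0 was that of Npas2, at 1246 ± 104 (SD, n = 4) against 1004 ± 246 (log2 difference 0.34, SE 0.162, limma adjusted p = 0.922). Ciart stood at 846 ± 55.4 in HT-Veh and 726 ± 54.5 in WT-Veh (SD, n = 4, as for all group values here), with overlap of the groups. Its log2 difference was 0.22 (SE 0.0829, unadjusted p = 0.0229, limma adjusted p = 0.922). Without the bulb-rich libraries of these groups, WT-Veh replicate 1 and HT-Veh replicate 4, this difference was 0.15. No member was without overlap in this comparison, against 3.84% of all genes tested.

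In HT-Flx versus HT-Veh, Ciart stood at 665 ± 77.8 against 846 ± 55.4 (log2 difference -0.35, SE 0.0969, unadjusted p = 0.00358, limma adjusted p = 1.00). It was the only member of 10 whose groups did not overlap here, against 1.99% of all genes. Per2 had the largest estimate, at 2294 ± 492 against 1779 ± 573 (log2 difference 0.40, SE 0.216, limma adjusted p = 1.00), with wide overlap. The Ciart difference was -0.33 with the bulb score as a covariate. Without HT-Veh replicate 4, the only bulb-rich library of these groups, it was -0.31. In WT-Flx versus WT-Veh no member was without overlap, against 2.89% of all genes, and the largest estimate was that of Tef (11165 ± 1079 against 12296 ± 1489, log2 difference -0.14, limma adjusted p = 1.00).

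In HT-Flx versus WT-Flx, Tef and Npas2 were higher in all 4 HT-Flx mice than in any WT-Flx mouse, 2 of 10 members against 5.83% of all genes. Tef stood at 14208 ± 794 against 11165 ± 1079 (log2 difference 0.35, SE 0.0915, unadjusted p = 0.00235, limma adjusted p = 0.299). Npas2 stood at 1359 ± 219 against 1071 ± 98.9 (log2 difference 0.33, SE 0.122, unadjusted p = 0.0177, limma adjusted p = 0.387). The bulb markers moved with this comparison, since 3 of the 4 WT-Flx libraries and no HT-Flx library were bulb-rich. With the bulb score as a covariate, the log2 difference of Tef was 0.14 and that of Npas2 0.48, and without the bulb-rich libraries, which leaves 1 WT-Flx mouse, they were 0.15 and 0.36. The part of the bulb tissue in these differences was not tested further.

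Whether fluoxetine acted differently on the clock genes of the 2 genotypes was asked by the interaction, the fluoxetine change in HT minus that in WT. No gene of 17567 passed (0%, 754 at an unadjusted p under 0.05), and no member. The estimates nearest the threshold were those of Ciart (-0.37, SE 0.161, unadjusted p = 0.0353, limma adjusted p = 0.998) and Tef (0.27, SE 0.127, unadjusted p = 0.0492, limma adjusted p = 0.998). Per2 had the largest estimate, 0.45 with a 95% interval that reached from -0.33 to 1.22. A test of any difference among the 4 groups called 7 of 17567 genes (0.0398%) and no member, with Tef, Npas2 and Ciart at unadjusted p-values of 0.00885, 0.0288 and 0.0472 and limma adjusted p-values of 0.640, 0.696 and 0.737. Group membership took 58.5% of the variance of Tef, 44.8% of Ciart and 43.9% of Npas2, 1.82% to 26.4% of that of the other 7 members, and 19.3% of that of the median gene. With the bulb score as a covariate, the interaction was 0.13 for Tef and -0.44 for Ciart. The moderated F among the 4 groups was then 2.40 for Tef, 2.96 for Npas2 and 3.82 for Ciart. Without the covariate it was 5.33, 3.83 and 3.25. The part of the bulb tissue in these values was not tested further.

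The other genes of the clock behaved likewise between groups. The list held 18 genes, among them Per1, Cry1 and Cry2 (repressors), Rora and Rorb (activators of Arntl), Bhlhe40 and Bhlhe41 (E-box repressors), Hlf and Nfil3 (D-box factors) and the kinases and ubiquitin ligase parts that set the stability of the repressors. All 18 were tested and 0 passed in any of the 4 comparisons or in the interaction, with at most 1 of them at an unadjusted p under 0.05 in each of the 4. Their median log2 difference between genotypes was 0.04 under vehicle and 0.08 under fluoxetine, and that between fluoxetine and vehicle was -0.01 in HT and -0.03 in WT mice. The median of all genes tested lay between -0.00091 and 0.0081 in these 4 comparisons. Of 6 genes that follow body temperature (Cirbp, Rbm3 and 4 heat shock genes) and of 11 immediate early genes, 0 passed in these 4 comparisons.

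The second question was whether the members moved together from mouse to mouse. Arntl was set against each of the other 9 over 16 mice. Pearson's r ran from -0.35 for Per3 to 0.44 for Ciart, and none of the 9 relations passed its permutation test (two-sided, 100000 permutations, Benjamini-Hochberg adjusted p = 0.671 to 0.954 over the 9, and 0.723 to 0.883 for Spearman's rho). Dbp and Nr1d1, the genes that oppose Arntl in tissues sampled around the clock, gave r = 0.31 (permutation p = 0.224; Spearman's rho 0.20, permutation p = 0.456) and r = -0.03 (permutation p = 0.915; rho -0.16, permutation p = 0.562). Per2 gave r = -0.03 (permutation p = 0.908; rho 0.04, permutation p = 0.874), and Ciart r = 0.44 (permutation p = 0.0891; rho 0.31, permutation p = 0.233). Per3 gave r = -0.35 (permutation p = 0.180; rho 0.18, permutation p = 0.503). For Clock, Npas2, Nr1d2 and Tef, r was -0.15, -0.13, 0.24 and -0.02 (permutation p = 0.542, 0.596, 0.342 and 0.954) and rho -0.31, 0.19, -0.04 and 0.26 (permutation p = 0.245, 0.472, 0.883 and 0.339).

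Much of this rested on HT-Flx replicate 2, the mouse with the lowest Arntl. Without it and WT-Veh replicate 4, the 2 mice furthest from the median of Arntl, r changed sign for 7 of the 9 genes. It became -0.15 for Dbp, 0.07 for Nr1d1, 0.39 for Per3 and 0.60 for Tef (permutation p = 0.0259 over 14 mice, adjusted p = 0.233 over the 9 relations). After subtraction of the group means r was 0.35 for Dbp and -0.06 for Nr1d1. Among the 11 libraries that were not bulb-rich r was 0.57 for Dbp (permutation p = 0.0690), -0.0042 for Nr1d1 (permutation p = 0.990) and -0.62 for Clock (permutation p = 0.0437, unadjusted), and the 5 bulb-rich libraries were too few for a value of their own.

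Across the whole table, no gene of 17566 varied with Arntl inside the groups past the threshold (0%, 1240 at an unadjusted p under 0.05), and none of the 9 other members did, at adjusted p-values of 0.779 to 0.991 (limma slope on Arntl beside the group means). None of the 18 other clock genes passed either. The genes with the most extreme statistics were Cdh10, Clcn2, Kri1, Spo11 and Zfp82, with positive slopes, and Nptx2, Dus4l, Glce, Ipo5 and Igsf9, with negative slopes, at adjusted p-values of 0.175 to 0.193. None is a listed clock gene.

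Dbp, the output factor, was followed by more genes than Arntl was. Of 17566 genes, 172 (0.979%) varied with Dbp inside the groups, 36 with a positive and 136 with a negative slope. Among the 9 other members, 1 passed: Clock fell by 1.11 log2 units per log2 unit of Dbp (SE 0.229, limma adjusted p = 0.0358). Npas2 (slope -0.77, SE 0.267, adjusted p = 0.115) and Ciart (0.52, SE 0.211, adjusted p = 0.165) did not pass, nor did any of the 18 other clock genes, of which 3 (Btrc, Hlf and Rora) had an unadjusted p under 0.05, against 22.4% of all genes tested. The 5 genes with the highest statistics were Ankrd16, Rab5if, Matk, Gnb2 and Xpo6 (slopes 0.80 to 1.15). The 5 with the lowest were Cpeb3, Pde4d, Slc8a1, Usp9x and Fam120c (slopes -1.51 to -1.09). None of these 10 is a listed clock gene.

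The relation rested on few mice. WT-Flx replicate 1, with the highest Dbp (5134) and the lowest Clock (1668) of the series, decided it: without this mouse 0 genes varied with Dbp, and the slope of Clock was -0.93 with an adjusted p of 0.263. Without WT-Flx replicate 2, 1 gene passed, and without WT-Flx replicate 4 there were 1498. Without the 5 bulb-rich libraries the slope of Clock was -0.56 (adjusted p = 0.0912, 316 genes called), and with the bulb score as a covariate it was -0.99 (adjusted p = 0.00943, 895 genes called). The slope kept its sign under every setting and every omission of 1 mouse, from -1.27 to -0.92 over the omissions, but lost the threshold in 9 of the 16. With the replicate number in the labels as a block, the slope of Clock was -0.88 (limma adjusted p = 0.703, 2 genes called).

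The bulb score itself went with 1 member. In a fit added after the values were seen, 2113 of 17567 genes (12.0%) varied with the score inside the groups. Tef fell by 0.053 log2 units per unit of the score (SE 0.0144, limma adjusted p = 0.0252), and the slope of Clock was -0.085 (SE 0.0292, adjusted p = 0.0654). Tef stood at 10093 to 13019.7 in the 5 bulb-rich libraries and at 12413 to 15046 in the other 11, so that the ranges met only through HT-Veh replicate 4. Clock stood at 1668 to 2894 against 2618 to 3149. The share of members called, 1 of 10, was near that of all genes. Of the 18 other clock genes, 4 passed, all with negative slopes, namely Rora (-0.14), Arntl2 (-0.16), Hlf (-0.08) and Fbxl21 (-0.19), as did the cold-inducible RNA-binding protein gene Cirbp in the other direction (0.10). The call for Tef was lost without WT-Veh replicate 1, which had the highest score (slope -0.035, adjusted p = 0.592), without WT-Veh replicate 4 (-0.050, adjusted p = 0.0538) and without WT-Flx replicate 3 (-0.046, adjusted p = 0.0969). It was also lost with the replicate number in the labels as a block, under which 849 genes were called.

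**Figure D3:**
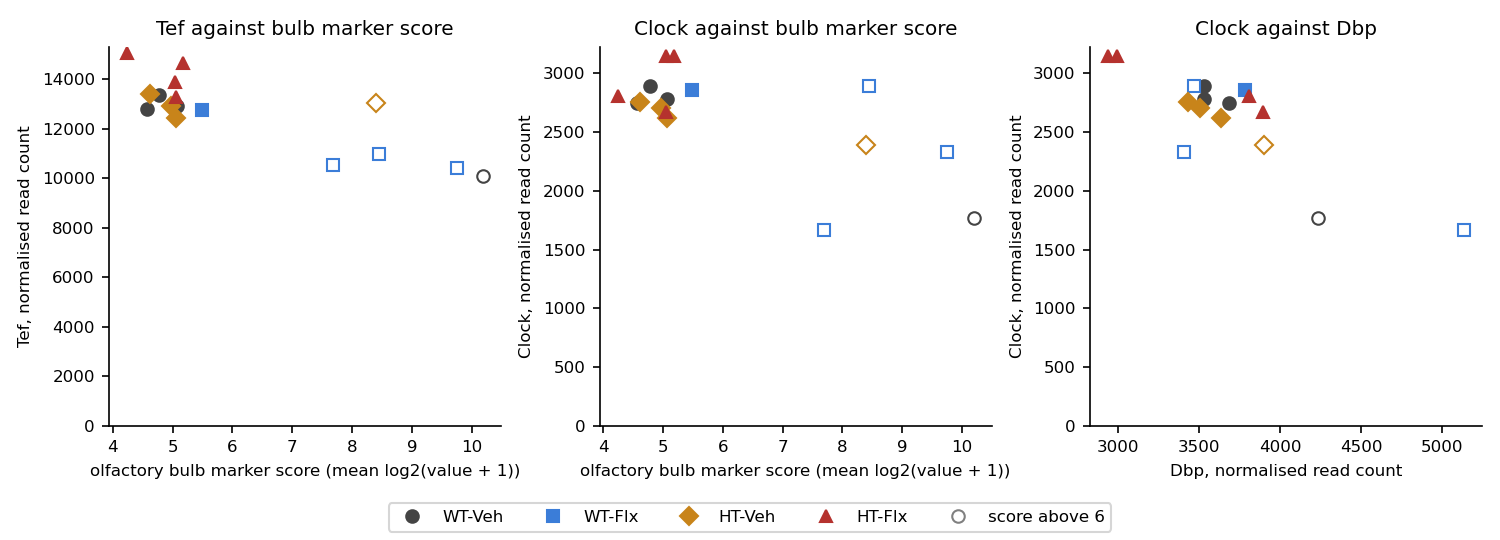
Normalised read counts of Tef and Clock (vertical axes from 0) against the bulb score (left and middle panels, mean log2(value + 1) of 6 markers) and of Clock against Dbp (right panel), 1 point for each of 16 mice, with the group by colour and shape and open symbols for a bulb score above 6. The bulb-rich mice hold the 4 lowest Tef values, and the slope of Clock on Dbp leans on the mouse at the lower right with Dbp at 5134 and Clock at 1668.

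The Per2 level was then set against all other genes. In a fit added after its spread had been seen, 21 of 17566 genes (0.120%) varied with Per2 inside the groups, 20 of them with a positive slope. The strongest were Pfkfb3, a regulator of glycolysis, Ccnd2 (cyclin D2), Spred1, an inhibitor of Ras signalling, Adipor2, an adiponectin receptor, and Zfp366, with slopes of 0.48 to 1.05 and adjusted p-values of 0.00347 to 0.0149. Among the lowest were Zc3hc1, Gh, 1810058I24Rik and Nr2f1, of which Zc3hc1 passed (slope -0.51, adjusted p = 0.0478). Among the 18 other clock genes 1 passed, Per1, the closest relative of Per2, with 0.59 log2 units per unit of Per2 (SE 0.110, limma adjusted p = 0.0478). This call was lost with the replicate number in the labels as a block, under which 0 genes were called. The E-box repressor Bhlhe40 just missed the threshold (0.49, SE 0.0976, adjusted p = 0.0558). None of the 9 other members passed, and the nearest were Tef (0.20, adjusted p = 0.240), Clock (0.35, adjusted p = 0.259) and Nr1d2 (0.18, adjusted p = 0.276). The slope of Arntl was 0.02 (SE 0.101) and that of Dbp -0.20 (SE 0.109).

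The immediate early genes, which neurons switch on within minutes of activity, leaned the same way without passing. Of 11, 10 had a positive slope on Per2 and 5 an unadjusted p under 0.05, where 2640 of all 17566 genes tested had one, and the nearest to the threshold were Arc (1.49, SE 0.289, adjusted p = 0.0558) and Egr1 (0.79, SE 0.164, adjusted p = 0.0579). Their median slope was 0.43, where that of all genes was -0.0043. Arc spanned 1373 to 10418 over the 16 mice. Of the temperature-linked genes, Cirbp had a slope of -0.44 (SE 0.110, adjusted p = 0.116). The calls on Per2 also leaned on single mice, from 2 genes without WT-Veh replicate 4 or WT-Flx replicate 1 to 255 without HT-Veh replicate 4, and the slope of Per1 stayed between 0.54 and 0.66 over the 16 omissions while it lost the threshold in 12. With the replicate number in the labels as a block, 404 of 17566 genes had an unadjusted p under 0.05 for the slope on Per2 (limma), and 0 passed. The part of the replicate number in the slopes on Per2 was not tested further.

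The mouse numbered 1 in the labels had the lowest Per2 in each of the 4 groups, at 1129 to 1642 against 1503 to 2767 in the other 12 mice. The labels do not say what the number stands for. A term for the number, added after this was seen and fitted beside the group means over all genes, called 1 gene of 17567 (0.00569%), and that gene was Per2 (limma moderated F 29.9, adjusted p = 0.0335). It was 1 of 10 members, and since the pattern was found in these data the test gives its size and no independent support. Next in order, and not past the threshold, came Plin4, Irs2 and Nr2f1, all at an adjusted p of 0.0663. Irs2 stood at 1000.3 to 1199.9 in the mice numbered 1 and 1329 to 1757 in the others. Arc and Egr1 were also lowest in the mouse numbered 1 in 4 of 4 groups, and Per1 and Bhlhe40 in 3 of 4. These genes are named above for their slopes on Per2, so their share in its pattern gives no separate support. Of the other members, Clock, Npas2, Per3, Nr1d2 and Tef were lowest there in 3 of 4 groups, Ciart and Nr1d1 in 1 and Arntl and Dbp in none, and Dbp was highest there in 3. The temperature-linked gene Cirbp was highest there in every group, at 1739 to 2550 against 1150 to 1881 in the other mice. Over all 17567 genes, 12.2% were lowest in the mouse numbered 1 in at least 3 of the 4 groups and 1.66% in all 4. The term for the number had an unadjusted p under 0.05 in 12.1% of all genes and in 5 of the 10 members. The same held for 8 of the 18 other clock genes, 4 of the 11 immediate early genes and 2 of the 6 temperature-linked genes.

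The call on Per2 held under some settings only. Its adjusted p was 0.0149 with the bulb score as a covariate, 0.0552 after rescaling to a common upper quartile and 0.778 without the 5 bulb-rich libraries (F 14.4). Over the 16 omissions of 1 mouse F ran from 22.1 to 43.8 and the adjusted p from 0.00615 to 0.182, above the threshold in 12. Hour of collection, handling and order of dissection are not given for any mouse, and their part in the Per2 values was not tested.

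**Figure D4:**
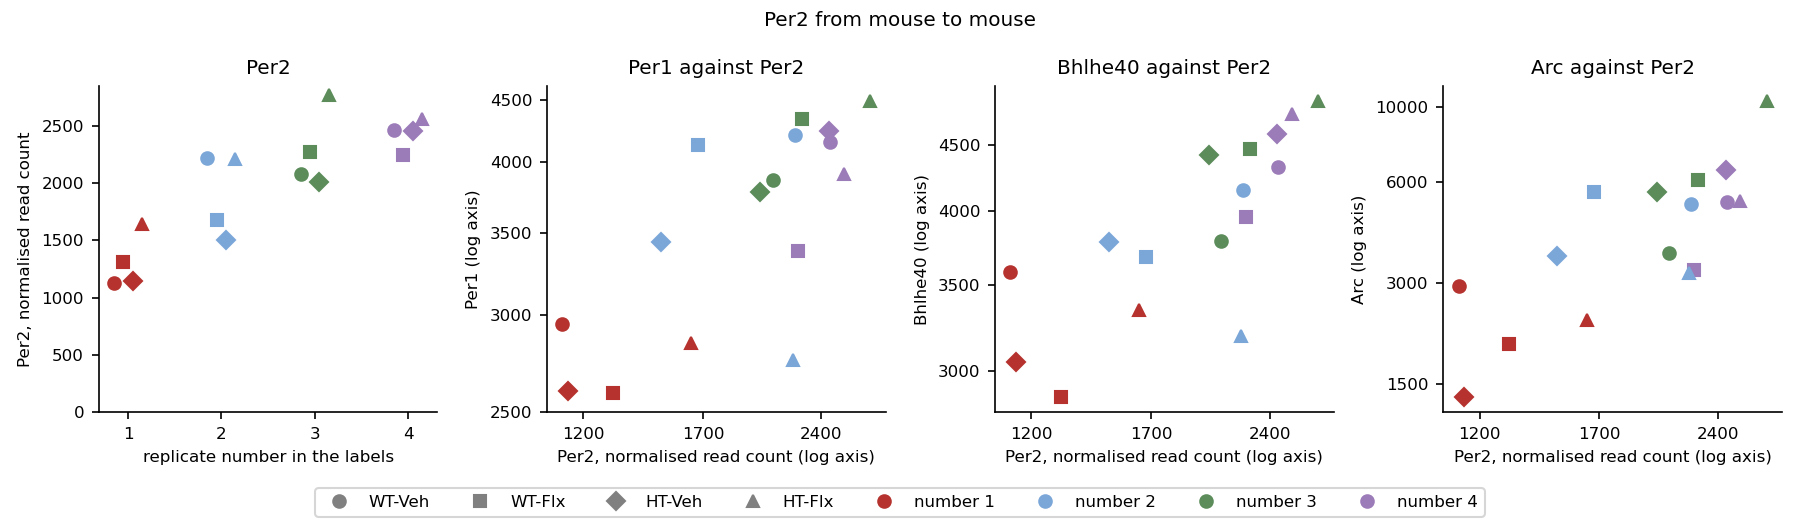
Per2 by the replicate number in the labels (left panel, vertical axis from 0) and Per1, Bhlhe40 and Arc against Per2 (other panels, log axes), all as normalised read counts, 1 point for each of 16 mice with shape for the group and colour for the number. The 4 mice numbered 1 hold Per2 at 1129 to 1642 and lie at the lower left of the panels for Per1, Bhlhe40 and Arc. These genes are named in the text for their slopes on Per2, so the panels give no separate support.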

How the data were processed

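RNA of the medial prefrontal cortex of 16 male mice was read from stranded poly-A libraries. The authors quantified the reads with Salmon 1.1.0 against GRCm38, and the deposited values are counts scaled by DESeq2 1.30.1 in R 4.1.1 (versions from the submitters' processing notes), a normalised signal per gene that is not whole: at most 31.1% of low values lay within 0.05 of a whole multiple, so no reads were recovered and the depth is unknown. The table held 18424 genes, 18411 with a symbol, and every column of values was used. Groups came from the labels. Here log2(value + 1) was fitted with limma 3.58.1 (R 4.3.3, eBayes with trend), after a filter of at least 10 in at least 4 mice, with Benjamini-Hochberg adjustment over all genes and a threshold of 0.05. Comparisons of 2 groups used only those groups, and the interaction and slopes used all 16 mice beside group means. Correlations used 100000 permutations in Python 3.11.15 (numpy 2.4.6, scipy 1.17.1, pandas 2.3.3). Scripts were tested on simulated data.

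The members, lists and tests were chosen with earlier results of these data known. Besides the members, genes were named where they had the 5 highest or 5 lowest statistics of a slope or belonged to the clock, temperature or immediate early gene lists, and some genes are not reported here by name. Lists of other brain cell types were also fitted and are not used as results. Tried beside this were a pseudocount of 0.1 or of 8, the omission of the filter, a mean of at least 100, upper quartile scaling, the bulb score as a covariate, all 4 groups in 1 fit, a block for the replicate number and the omission of each mouse, and the bulb-rich libraries were left out as an alternative added after the data were seen. The p-values measure the spread between mice, whose litters are not given.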

Additional observations from a re-analysis of the deposited data

Results flagged for a closer look

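Among the 40 sets of 4 values (10 members in 4 groups), 4 held a mouse far from the other 3 of its group, by a gap above Dixon's 95% critical value, which chance alone gives in about 1 in 20 sets. Clock was at 1764 in WT-Veh replicate 1, against 2747 to 2895 in the other 3, and this library had the highest bulb score (10.2). Npas2 was at 1686 in HT-Flx replicate 2, against 1224 to 1278, in the mouse that also had the lowest Arntl (487) and the highest Per3 (3531) of the series. Nr1d1 was at 3067 in HT-Flx replicate 4, against 3672 to 3791. Nr1d2 was at 4177 in HT-Veh replicate 1, against 4506 to 4571. The causes were not tested.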

How the results depend on the processing

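No member passed in any of the 4 comparisons between groups, and none did under the alternatives run. The counts of genes called moved more. HT-Veh versus WT-Veh (3) gave 20 with the bulb score as a covariate, 11 without the bulb-rich libraries and 0 with all 4 groups in the fit. WT-Flx versus WT-Veh (0) gave 1 with the covariate and 9 without the bulb-rich libraries. HT-Flx versus WT-Flx (7) gave 4 with a pseudocount of 0.1 or all 4 groups, and 0 with a mean of at least 100 or the covariate. The test among 4 groups (7) gave 1 with the covariate. Leaving out the bulb-rich libraries leaves 1 WT-Flx mouse, so no count is given there for the comparisons with WT-Flx or for the interaction. The slope on Dbp (172) gave 553 with a mean of at least 100, 895 with the covariate and 316 without the bulb-rich libraries, and that on Per2 (21) gave 54, 51 and 7 under these settings and 6 with upper quartile scaling. The term for the replicate number (1) gave 3 with the covariate, 0 with upper quartile scaling and 5 with a pseudocount of 8. The causes were not tested.

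The labels tie the replicate numbers to no litter, batch or day, and the pairing was not taken as given. Correlations of same-numbered deviations ran from -0.225 to 0.310, and in no comparison were all 4 above 0.1. With 4 numbers to match, 8 of 16 mice correlated best with their own number, a hint from the data and not the design. How many chance alone would give was not tested. With the replicate number as a block, HT-Veh versus WT-Veh gave 0 genes, the test among 4 groups 3, the slope on Dbp 2, the slope on Per2 0 (2.30% of genes at an unadjusted p under 0.05) and the slope on the bulb score 849. At an unadjusted p under 0.05 (limma), HT-Veh versus WT-Veh then held 2 members (4.40% of all genes) and HT-Flx versus HT-Veh 2 (3.53%). WT-Flx versus WT-Veh held 0 (7.35%) and HT-Flx versus WT-Flx 5 (11.8%), and no member passed after adjustment. The calls on members and on Per1 were lost with the block: the slope on Dbp was -0.88 for Clock (adjusted p = 0.703), that on the bulb score -0.044 for Tef (adjusted p = 0.131) and that on Per2 0.37 for Per1 (adjusted p = 1.00).

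Leaving out 1 mouse at a time gave 0 to 2 genes in HT-Veh versus WT-Veh, 0 to 4 in WT-Flx versus WT-Veh, 0 to 23 in HT-Flx versus WT-Flx, 0 to 12 among 4 groups, 0 to 1 for the slope on Arntl, 0 to 1498 for Dbp, 2 to 255 for Per2, 152 (without WT-Veh replicate 1) to 3505 (without WT-Flx replicate 1) for the bulb score and 0 to 2 for the replicate number. The slope of Zfp82 on Arntl ran from -0.0089 to 4.75.

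Pearson's r with Arntl without the 2 furthest mice was 0.25 for Clock, 0.41 for Npas2, 0.29 for Per2, 0.39 for Per3, 0.072 for Nr1d1, -0.15 for Dbp and 0.60 for Tef. With group means subtracted it was 0.049 for Per2, with upper quartile scaling 0.11 for Nr1d1 and 0.50 for Ciart (permutation p = 0.0456), and without the bulb-rich libraries -0.62 for Clock (permutation p = 0.0437). Over the omissions of 1 mouse it ran from -0.25 to 0.11 for Clock, -0.27 to 0.51 for Npas2, -0.15 to 0.11 for Per2, -0.45 to 0.31 for Per3, 0.15 to 0.53 for Ciart, -0.099 to 0.011 for Nr1d1, 0.087 to 0.32 for Nr1d2, -0.067 to 0.46 for Dbp and -0.16 to 0.42 for Tef. The depth is unknown, so no counting error could be given.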
